A study of Homo sapiens with 3 samples.

Results

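The activin and TGF-beta signalling genes described here are the activin subunits INHBA and INHBB, the follistatins FST and FSTL3, the ligands TGFB1 and TGFB2, the receptors TGFBR1 and TGFBR2, and the signal transducers SMAD3 and SMAD7. They were chosen by symbol, and every probe annotated to them was used. All 10 genes were found among the 17614 gene symbols of the array, and each was measured by 1 probe. The RNA came from HSC-3, an established human tongue cancer cell line, hybridised to 1-colour Cy5 arrays. The parental cells carried no shRNA. The shScr cells carried a scrambled, non-effective shRNA cassette in a lentiviral GFP vector, and the shDKK3 cells carried shRNA constructs against DKK3 (dickkopf 3, a secreted protein) in a lentiviral GFP vector, with both viruses made in HEK293 cells. Both shRNA lines were grown with puromycin and the parental cells without it, so the vector, the virus and the drug cannot be told apart between parental and shScr. The sources used here do not say how many DKK3 constructs were used or whether the lines were clones. Each condition was measured on 1 array. There are therefore no replicates and no test, and every difference is between 3 arrays.

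Activins are dimers of inhibin beta subunits, and activin A is the dimer of the INHBA product. Activins and TGF-betas bind pairs of serine/threonine kinase receptors at the cell surface, which phosphorylate SMAD2 and SMAD3, and these enter the nucleus with SMAD4. Follistatins bind activin outside the cell and block it, and SMAD7 is an inhibitory SMAD that the pathway itself induces. In normal squamous epithelium TGF-beta holds back proliferation, and in carcinoma cells the same pathway is also known for its part in invasion.

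DKK3, the gene aimed at, had deposited intensities of 309 on parental, 226 on shScr and 170 on shDKK3. After normalisation, as described below, its difference was -0.39 to shScr and -0.71 to parental, with a control spread of 0.39 for genes of like brightness, so the step from shScr was no larger than that spread. These deposited intensities are the authors' linear values, in units that put the median probe of each array at 25. The spots above the blanks made up 78.5% to 81.3% of the gene probes per array. Of the squamous markers, KRT5, KRT14 and SFN were bright on all arrays, and TP63 was dim, at 18.1 to 24.8. The markers did not move together: after normalisation KRT14 was 1.07 above shScr and 1.85 above parental on the shDKK3 array (log2), DSP was at -0.85 and -0.34, and EPCAM at -1.72 and -1.66. Of markers of other cell types, PTPRC (leukocytes) and LUM (fibroblasts) had no deposited value on any array and COL3A1 was at most 2.6, while the fibroblast-associated DCN was at 72.9 to 92 and CD68 at 107 to 236.5. Their part in the results was not tested. Differences below are on the log2 scale after background correction and quantile normalisation, which adds an offset of 50 units and so shrinks the differences of dim probes. In the deposited intensities, by contrast, the median gene itself lay 0.32 (log2) above shScr and 0.11 above parental on the shDKK3 array, and -0.20 on shScr against parental, so deposited folds are to be read against these shifts. A difference was called at 2-fold, that is 1 on the log2 scale.

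INHBA was the member with the largest difference. Its deposited intensity was 589 on parental, 372 on shScr and 95.1 on shDKK3. The shDKK3 array was thus the lowest, and shScr lay between it and the parental array. On the normalised log2 scale the levels were 9.77, 9.25 and 7.54 in the same order. Set against shScr, the INHBA signal of the shDKK3 array was 3.28-fold lower (log2 difference -1.71), and set against parental it was 4.70-fold lower (log2 difference -2.23). Only 64 of the 15148 genes compared with shScr, and 2 of the 14962 compared with parental, had a lower difference. Between the controls INHBA differed by -0.52 (shScr minus parental), and genes of like brightness had a robust SD of 0.45 between the control arrays.

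In each of these comparisons 1 member of 10, INHBA, passed 2-fold downward, and 0 members passed it upward. Among all genes compared, 4.48% were at least 2-fold lower and 2.96% at least 2-fold higher against shScr. Against parental these shares were 3.04% and 0.862%, and 2.05% of genes were lower and 0.564% higher against both. A count of 1 in 10 is too small to set apart from such shares. The median difference of the members was 0.08 against shScr and -0.06 against parental, beside 0.03 in both for all genes. Both comparisons share the shDKK3 array. Of all genes at least 2-fold apart from shScr, 60.2% were lower. Median scaling gave 84.9%, and the authors' deposited table gave 42.2%.

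**Figure D1:**
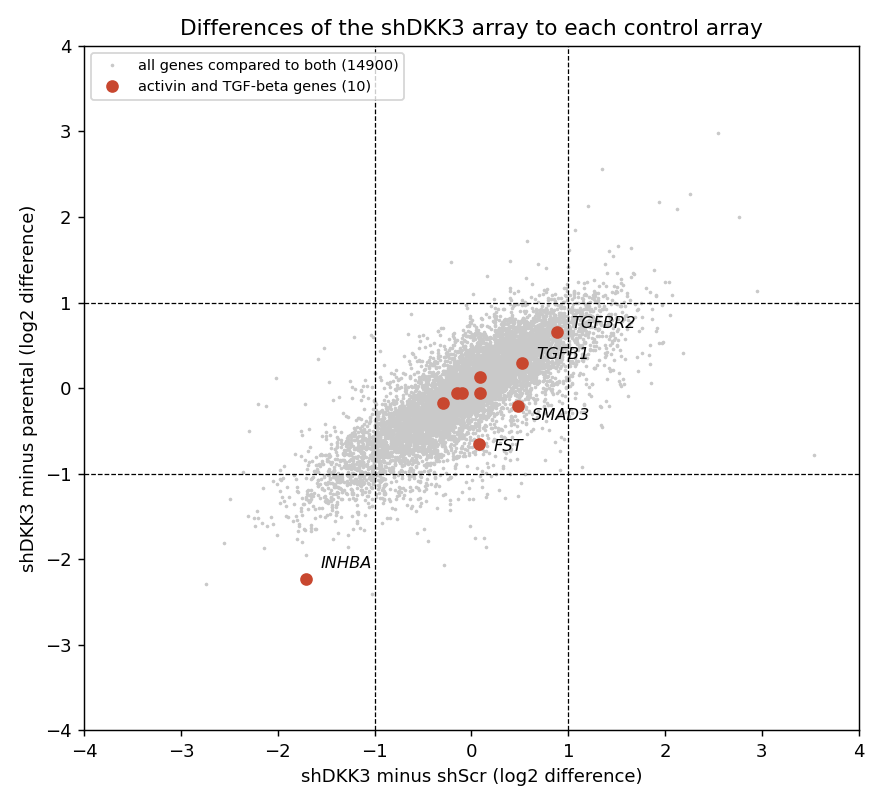
Log2 difference of the shDKK3 array to the shScr array (x axis) and to the parental array (y axis). Grey points are the 14900 genes compared with both, red points are the 10 activin and TGF-beta genes, and dashed lines mark 2-fold. INHBA sits at -1.71 and -2.23, outside the 2-fold lines, and TGFBR2 sits nearest to them on the higher side, at 0.88 and 0.66.

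INHBA and TGFBR2 had the largest differences to shScr among the members, in opposite directions, and their promoter windows are printed for that reason. Each runs from 250 bases before to 50 bases after a RefSeq transcript start (GRCh38.p14), 5′ to 3′ on the gene's strand. The INHBA window is chr7:41703041-41703340 on the minus strand. The TGFBR2 window is chr3:30606106-30606405 on the plus strand, the first of 2 windows listed for that gene. Capitals mark matches to any of 7 searched motifs on either strand.
INHBA: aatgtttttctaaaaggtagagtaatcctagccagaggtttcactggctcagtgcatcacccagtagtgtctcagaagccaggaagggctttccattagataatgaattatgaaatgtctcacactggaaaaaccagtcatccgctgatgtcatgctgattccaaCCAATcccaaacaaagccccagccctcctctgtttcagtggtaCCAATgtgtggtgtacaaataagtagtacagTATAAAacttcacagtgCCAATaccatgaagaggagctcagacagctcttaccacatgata
TGFBR2: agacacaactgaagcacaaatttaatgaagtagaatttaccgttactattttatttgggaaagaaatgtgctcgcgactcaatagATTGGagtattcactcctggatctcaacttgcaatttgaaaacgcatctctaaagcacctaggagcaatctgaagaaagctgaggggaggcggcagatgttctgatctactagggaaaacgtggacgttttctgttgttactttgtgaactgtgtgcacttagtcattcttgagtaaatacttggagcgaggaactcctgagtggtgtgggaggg

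The motifs searched were the TATA box TATAAA, the CCAAT box CCAAT, the GC box GGGCGG, the AP-1 site TGANTCA, the cyclic AMP response element TGACGTCA, the SMAD palindrome GTCTAGAC and the CAGA box AGCCAGACA, which do not overlap each other in the printed windows. The INHBA window held 1 match to the TATA box, at -11 to -6 bases from the transcript start. It also held 3 matches to the CCAAT box, the last of them past the start, at 6 to 10 bases. The TGFBR2 window held 1 match to the CCAAT box, on its minus strand. Over 27305 promoter windows of the same length, 12.0% held a TATA box and 35.7% a CCAAT box. The SMAD palindrome was in 0.201% of all windows, the CAGA box in 0.315%, and neither was in the first window of any of the 10 members. The AP-1 letters were in the FST window and in 7.76% of all windows. A match or its absence describes only these letters in these windows.

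INHBB, which encodes the subunit of activin B, had deposited intensities of 16.8 on the parental array, 17.7 on shScr and 14.5 on shDKK3. The 3 values lie close together, with shDKK3 the lowest. The normalised differences of the shDKK3 array were -0.15 to shScr and -0.06 to parental, against a spread of 0.10 for genes of like brightness. Relative to INHBB within the same arrays, INHBA of the shDKK3 array was 3.21-fold below shScr and 5.34-fold below parental in the deposited values. This ratio of ratios is not altered by a factor that scales a whole array.

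FST, the activin-binding protein follistatin, was bright on every array. Its deposited intensities were 5998 on the parental array, 2922 on shScr and 4921 on shDKK3. The shScr array was the lowest, and the parental array the highest. On the normalised scale FST was at 13.05, 12.33 and 12.40, so that shDKK3 and shScr differed by 0.07 while both lay below parental, by -0.65 and -0.72. The spread for genes of like brightness was 0.35. The deposited value of the shDKK3 array was 1.68-fold above that of shScr, a step that was nearly gone after normalisation. Relative to FST, deposited INHBA of the shDKK3 array was 6.59-fold below shScr and 5.08-fold below parental. After normalisation the same contrast was -1.79 and -1.58 on the log2 scale, and it was 0.20 between shScr and parental.

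FSTL3, a second follistatin-type binder of activin, was dim, at 8.31 on parental, 8.1 on shScr and 12.7 on shDKK3 (deposited intensity). The shDKK3 array was the highest, and the controls were nearly equal. Its spots stood 5.58 to 11.4 blank SDs above the mean of the blank spots. The normalised differences were 0.09 to shScr and 0.13 to parental, where genes as dim had a spread of 0.07 between the controls.

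**Figure D2:**
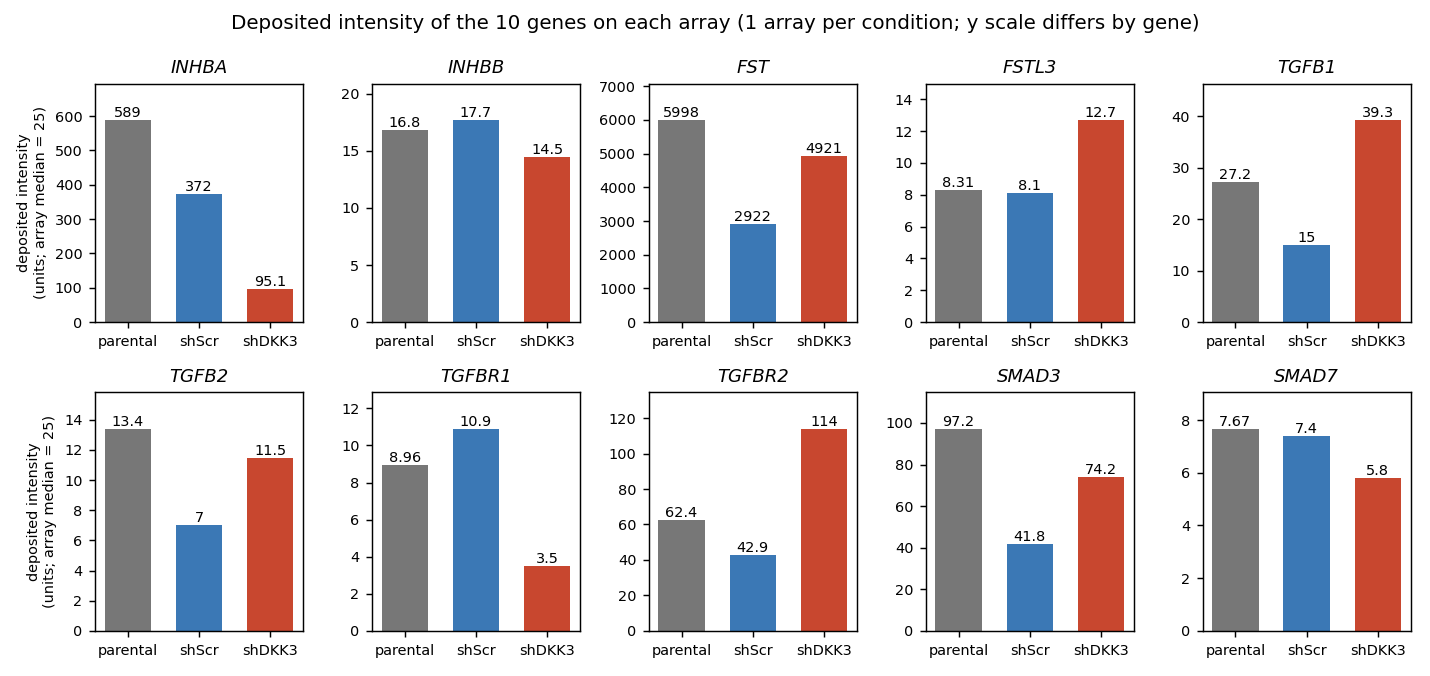
Deposited linear intensity (y axis, units in which each array's median probe is 25, from 0, with its own scale per gene) on the parental, shScr and shDKK3 arrays (x axis). Each bar is 1 probe on 1 array, so there are no error bars. INHBA is lowest on shDKK3 at 95.1, TGFBR2 is highest there at 114, and FST and SMAD3 are lowest on shScr at 2922 and 41.8.

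Of the TGF-beta ligands, TGFB1 had deposited intensities of 27.2 on parental, 15 on shScr and 39.3 on shDKK3. The shDKK3 array was the highest and shScr the lowest. The normalised differences were 0.52 to shScr and 0.29 to parental, with a spread of 0.15 between the controls for genes of like brightness. In the authors' deposited table the difference to shScr reached 2.62-fold, and the one to parental was 1.45-fold.

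TGFB2 was at 13.4 on parental, 7 on shScr and 11.5 on shDKK3 (deposited intensity). Here shScr was the lowest, and shDKK3 lay between the controls. The normalised differences were 0.09 to shScr and -0.05 to parental. Genes of like brightness had a control spread of 0.08, about the size of the difference to shScr.

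The 2 receptors differed in opposite directions. TGFBR2, the type II receptor kinase that binds the ligand, was at 62.4 on parental, 42.9 on shScr and 114 on shDKK3 (deposited intensity). It was the member with the highest difference to each control, at 0.88 to shScr (1.84-fold) and 0.66 to parental (1.58-fold) after normalisation. These places correspond to the 95.9th and 95.0th percentile of all genes compared. Genes of like brightness had a control spread of 0.30, and shScr minus parental was -0.23 for TGFBR2. The 2-fold line was passed against shScr in the authors' deposited table (2.66-fold) and not against parental (1.83-fold).

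TGFBR1, the type I receptor kinase that phosphorylates the SMADs, was at 8.96 on parental, 10.9 on shScr and 3.5 on shDKK3 (deposited intensity). The shDKK3 array was the lowest. Its spot there lay 3.55 units above the blank mean, or 3.07 blank SDs, and so close to the detection limit of 2 SDs. The normalised differences were -0.29 to shScr and -0.17 to parental, with a spread of 0.06 for genes as dim. In the authors' deposited table, which carries no offset, TGFBR1 was 3.11-fold lower than shScr and 2.56-fold lower than parental, and with it 2 members, INHBA and TGFBR1, were at least 2-fold lower than both controls. Relative to TGFBR1, deposited TGFBR2 was 8.28-fold higher on the shDKK3 array than on shScr and 4.68-fold higher than on parental. That ratio rests on the dim TGFBR1 spot.

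SMAD3, the transducer phosphorylated by the activin and TGF-beta receptors, was at 97.2 on parental, 41.8 on shScr and 74.2 on shDKK3 (deposited intensity). The shScr array was the lowest, and the shDKK3 array lay between the controls. SMAD3 was therefore 0.48 above shScr and at -0.20 against parental after normalisation. The controls themselves differed by -0.68, more than the shDKK3 array differed from either. The spread for genes of like brightness was 0.30.

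SMAD7, the inhibitory SMAD that competes for the receptor and recruits SMURF ubiquitin ligases, was dim. Its deposited intensities were 7.67 on parental, 7.4 on shScr and 5.8 on shDKK3. The shDKK3 array was the lowest by a small step, and the spots stood at least 5.14 blank SDs above the blanks. The normalised differences were -0.10 to shScr and -0.06 to parental, with a spread of 0.06.

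Across the members, 3 genes had higher signal on the shDKK3 array than on both controls (FSTL3, TGFB1 and TGFBR2), 4 had lower signal than both (INHBA, INHBB, TGFBR1 and SMAD7), and FST, TGFB2 and SMAD3 lay between the controls. Of all 14900 genes compared with both, 48.2% lay above both controls and 33.5% below both. These directions were not all stable. The sign of SMAD7 turned in 2 of 10 alternatives against shScr and in 3 against parental. INHBB, TGFBR1, TGFBR2 and FST turned in 1 of 10 against each control, and FSTL3 and SMAD3 in 1 of 10 against shScr. TGFB2 turned in 1 of 10 against shScr and in 2 against parental. The mean of probes is 1 of these 10 alternatives and could not turn a sign, because each member had 1 probe. The shScr array differed from parental by at least 2-fold in 0 members, with 0.983% of all genes at least 2-fold lower and 0.404% higher in that comparison. The authors' deposited table gave 2 members at least 2-fold lower on shScr than on parental, FST (2.05-fold) and SMAD3 (2.33-fold).

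These values depended on the background step. Under the other ways of processing, INHBA stayed between -2.07 and -1.71 against shScr and between -2.63 and -2.19 against parental, and TGFBR2 between 0.59 and 1.41 and between 0.42 and 0.97. When the deposited background column was subtracted, INHBA was at -0.41 and -0.03 and TGFBR2 at -0.04 and -0.08. That column read 843 beside a spot of 883 for INHBA on the parental array, 614 beside 737 on shScr and 115 beside 146 on shDKK3. It followed the brightness of its own spot over all gene probes, with r from 0.949 to 0.976 on the log2 scale.

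**Figure D3:**
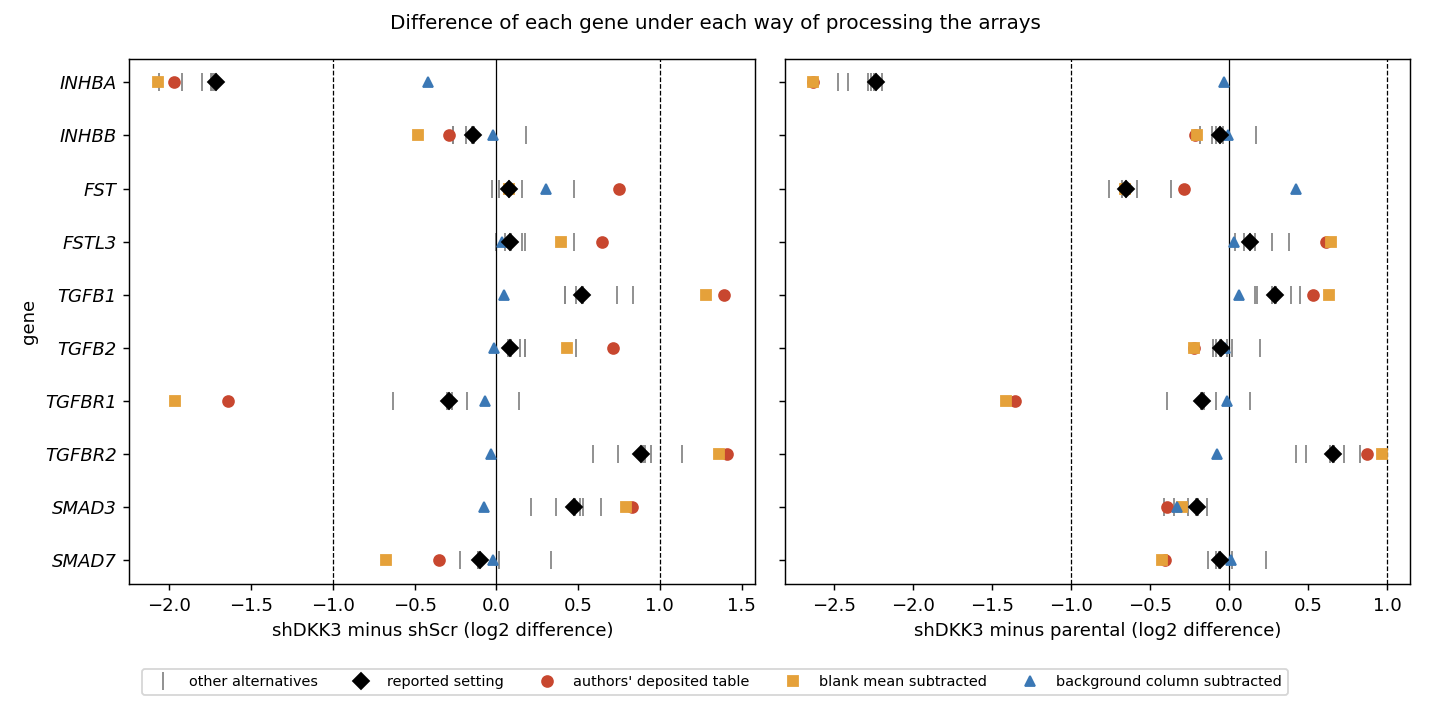
Log2 difference of the shDKK3 array to shScr (left) and to parental (right) for each gene (y axis) under each way of processing. Black diamonds are the reported values, grey ticks are other alternatives, and dashed lines mark 2-fold. Coloured symbols are the authors' deposited table, the subtraction of the blank mean and the subtraction of the background column. INHBA lies left of the line at -1 under all settings shown but the subtraction of the background column, and TGFBR1 crosses it where the blank level is removed with no offset added.

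The genes whose pair of differences lay nearest to that of INHBA, among 13113 other genes detected on all 3 arrays, with uncharacterised loci left out, were ARHGAP29 (-1.70 to shScr and -1.95 to parental), ITGB1 (-1.75 and -1.80), ERGIC2 (-1.80 and -1.76), CDC2, now named CDK1 (-1.43 and -1.76), and TMEM123 (-1.66 and -1.67). Their distance from INHBA was 0.28 to 0.56 on the log2 scale. Likeness over 3 arrays is a weak description.

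Other genes of the pathway came from a list of 37, of which 36 were matched to the array and 35 were compared with shScr. Against shScr 0 were at least 2-fold higher and 1 lower, and against parental 0 were higher and 2 lower of 34, near the shares of all genes given above (2.96% and 4.48% against shScr, 0.862% and 3.04% against parental). The median differences were -0.04 and -0.03, so the list lay slightly below all genes in both. The lower one against shScr was USP15, a deubiquitinase of the pathway, read here from the brighter of its 2 probes. Its deposited intensities were 62.5 on parental, 77.1 on shScr and 16.2 on shDKK3 (log2 differences -1.15 to shScr and -0.86 to parental). SMURF2, the ubiquitin ligase that SMAD7 brings to the receptor, was at 206.7, 106 and 44.0 (-0.84 and -1.52). FSTL1, a secreted follistatin-like glycoprotein, was at 1221, 659.8 and 578.7 (-0.47 and -1.18).

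By role, the 13 regulators of receptors and SMADs on the array included 9 with lower signal on the shDKK3 array than on both controls and 2 with higher, where 33.5% and 48.2% of all genes lay on these sides. The difference from all genes was not tested. Their differences to shScr ran from -1.15 for USP15 to 0.50 for TGIF2, a corepressor. SKIL, another corepressor, was at 18.8 on parental, 18 on shScr and 4.1 on shDKK3 in the deposited intensities, which the offset reduced to -0.47 and -0.43. The SKIL spot on the shDKK3 array read 51.0, close to the detection limit of 49.2 there. The 7 receptors and co-receptors compared, among them the activin receptors ACVR1B, ACVR2A and ACVR2B, all lay between -0.18 and 0.29 of either control. The offset also reduced the differences of the dim probes among them. In the deposited intensities ACVR2A was 1.54-fold below shScr and 1.73-fold below parental. Deposited ACVR2B was 1.76-fold above shScr and 1.17-fold above parental. SMAD2 (-0.29 and -0.33) and SMAD4 (-0.36 and -0.24) were lower than both controls, and SMAD6, an inhibitory SMAD, was at 0.01 and 0.04. Deposited SMAD2, which was dim, was 1.87-fold below shScr and 2.34-fold below parental. Of 8 genes of latency and activation, 5 lay above both controls and 2 below, near the shares of all genes. LTBP3, a latent TGF-beta binding protein, was 0.66 above shScr and 0.58 above parental, and the integrin subunit ITGAV was at -0.48 and -0.61. LTBP1 was at 4.03 on parental, 2.5 on shScr and 12.8 on shDKK3 (deposited intensity), close to the detection limit on the controls. Its normalised differences were 0.29 to shScr and 0.27 to parental.

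Genes widely described as TGF-beta or activin targets differed in both directions. Most of the list is described as induced, but ID1 and MYC, commonly repressed, are pooled with it in the counts and medians. Of 42 listed, 40 were matched and 39 compared. Against shScr 5 were at least 2-fold higher and 3 lower, with a median of 0.05, and against parental 0 were higher and 1 lower, with a median of 0.03. Of all genes, 2.96% were higher and 4.48% lower against shScr, and 0.862% and 3.04% against parental. Nothing particular to the list is read from counts this small. The 1 lower against both controls was CTGF, now named CCN2, a matricellular protein, with deposited intensities of 181, 160 and 49.6 on parental, shScr and shDKK3 (-1.19 and -1.25). PTHLH, which encodes parathyroid hormone-related protein, was at -1.12 and -0.52, and FN1, fibronectin, at -1.11 and -0.48. Both were higher on shScr than on parental, by 0.61 and 0.63.

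On the higher side, ID1, which blocks basic helix-loop-helix factors and which TGF-beta is known to repress in epithelial cells, had deposited intensities of 160.2, 117.5 and 330.5 on parental, shScr and shDKK3 (1.14 to shScr and 0.88 to parental). BHLHB2, now named BHLHE40, a basic helix-loop-helix repressor, was 1.05 above shScr and 0.64 above parental. IGFBP3, an insulin-like growth factor binding protein, was 1.01 and 0.50 above them, and ACTA2, smooth muscle actin, 1.16 and 0.32. These 4 genes had lower signal on shScr than on parental, by 0.26 to 0.84 on the log2 scale, so part of each difference to shScr lies between the control arrays. TGFBI and CDKN1A, both listed as induced, stayed short of 2-fold but also lay above both controls. TGFBI was at 0.81 to shScr and 0.75 to parental, and CDKN1A at 0.76 and 0.69. Other genes listed as induced lay below both controls by steps of like size. Among them were THBS1, at -0.97 to shScr and -0.64 to parental, and SNAI2, at -0.66 and -0.76. MYC, listed with ID1 as commonly repressed, lay below both controls, at -0.41 to shScr and -0.20 to parental. It was read from the brighter of its 2 probes, and its control spread was 0.46. Of the 39 targets compared, 19 lay above both controls and 12 below both, beside 48.2% and 33.5% of all genes.

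**Figure D4:**
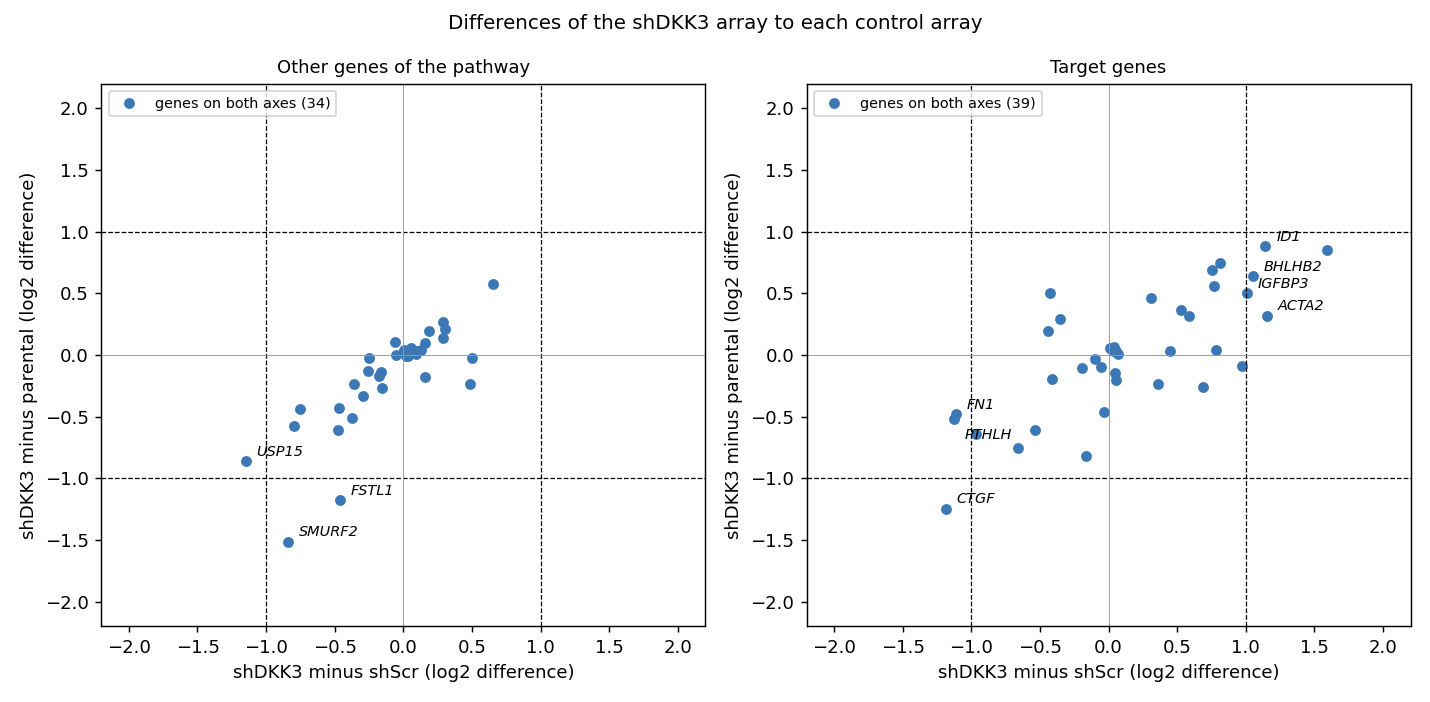
Log2 difference of the shDKK3 array to shScr (x axis) and to parental (y axis) for the other genes of the pathway (left, 34 genes) and the target genes (right, 39 genes), with 1 point per gene and dashed lines at 2-fold. Most pathway genes lie within 2-fold of both controls with SMURF2, USP15 and FSTL1 as the named exceptions, and CTGF is the 1 target gene beyond 2-fold from both, at -1.19 and -1.25.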

How the data were processed

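Total RNA of 3 conditions was measured on 3 arrays, 1 each, grouped by the shRNA label. The deposited intensity of the scanner files is a spot median taken at 635 nm, joined from scans at 3 gains by fitted lines, per the file headers. The deposited value table holds linear intensity: set against the spot medians it lies on straight lines with slopes of 1.41, 1.83 and 1.04 and an intercept near the blank mean, and the authors' normalisation is not given in the sources used here. Spot medians were corrected with normexp (offset 50) and quantile normalised over the gene probes in limma 3.58.1 under R 4.3.3, and the pipeline was tested on simulated data. The 9 probes marked not good were left out. A probe was detected above the mean plus 2 SD of 2680 blank spots (limits 54.3, 59.1 and 49.2), and a gene entered a comparison where detected on the brighter array. Gene names came from the platform annotation (1 symbol for 20228 probes, several for 0, none for 4223). A gene was its probe with the highest mean, and its control spread was the robust SD of shScr minus parental over the 500 genes nearest in level. Copies of 2 positive controls, with 24 copies of the first per array, had SDs of 0.08 to 0.19 (log2), which is spot noise alone. The number of arrays limits the precision. With 1 array per condition no p-value was computed. Members and lists were chosen with earlier results of these data known. The text names all members, DKK3, and of each list up to 8 genes each way with the same sign to both controls and at least 2-fold to 1 of them, ranked by the smaller difference. SKIL, TGIF2, LTBP1, LTBP3, ITGAV, the SMADs and the receptors were named by role after their values were seen. TGFBI, CDKN1A, THBS1, SNAI2 and MYC, which that rule leaves out, were also named after their values were seen. A target gene that the rule allows is counted and not reported here by name. Promoter sequences are RefSeq's.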

Additional observations from a re-analysis of the deposited data

How the results depend on the processing

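No paired analysis was possible because each condition had 1 array. The arrays' number and, for INHBB, FSTL3, TGFB1, TGFB2, TGFBR1 and SMAD7, signal under 50 units above the blanks limit the values. A value was taken as moved where it shifted by more than the spread between the control arrays, and a count where it changed by over 1.5 times. Of 366 alternative values of counts and medians, 292 did not move, and of 300 alternative values of single members 196 did not. Some of these values could not move. Each of the 10 members had 1 probe, so the mean of probes left member values unchanged. All 10 were detected on all 3 arrays, so the settings on the detection filter left member counts and medians unchanged. No called member value changed sign. The causes were not tested. By its arithmetic, removing the blank level with no offset added does not shrink the differences of dim probes.

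With the blank mean subtracted, members at least 2-fold higher and lower were 2 and 2 against shScr. Against parental 2 were lower, and 2 were lower than both controls. Between the controls 1 was lower. The member medians were 0.23, -0.26 and -0.48 (shScr, parental, and between the controls). In the authors' deposited table the counts were 2 higher and 2 lower against shScr, 2 lower against parental, 2 lower than both, and 2 lower between the controls, with medians of 0.68, -0.25 and -0.60, where all genes had 0.32, 0.11 and -0.20. With an offset of 16, 1 member was 2-fold higher than shScr. With the background column subtracted 0 were lower against shScr, parental or both, and the median between the controls was 0.016. With 75th percentile scaling the medians were 0.48 and 0.19 (all genes 0.36 and 0.26). At 1.5-fold, 1 was higher against shScr, against parental and against both, and 2 were lower against parental and 2 between the controls.

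For the other pathway genes, blank subtraction gave 2 higher and 6 lower against shScr, 1 and 7 against parental, and 1 higher between the controls. The deposited table gave 2 and 4, then 1 and 6, then 1 lower with a median of -0.27. Lower genes against shScr were 3 with an offset of 16, 2 with median scaling and 0 with 75th percentile scaling (median 0.25). With the background column 0 were lower against parental and 1 higher between the controls.

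For the target genes against shScr, higher counts were 11 (blank subtraction), 9 (offset 16), 1 (background column), 1 (median scaling), 3 (cyclic loess), 13 (deposited table) and 3 (without the trend with gene length). Lower counts were 5 with blank subtraction and 1 with the background column, and the median was 0.41 with 75th percentile scaling and in the deposited table. Against parental, 3, 1 and 4 were higher with blank subtraction, 75th percentile scaling and the deposited table, and 2 were lower with blank subtraction, offset 16, median scaling and the deposited table. Between the controls, 1 was higher with blank subtraction, offset 16, background column, median scaling and the deposited table. Lower counts there were 9, 5, 0, 0 and 9 in that order, and the median was -0.43 in the deposited table.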
